A study of Mus musculus with 11 samples.

Results

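The comparison described here sets the prostates of mice with a double genotype against wild-type prostates. The sample labels write the double genotype as Pb-ERG, Trp53pcR172H/-, and it is called double-mutant here. Its members are the 3 double-mutant and the 3 WT libraries among the 11 RNA sequencing libraries of the series, taken by their titles. All of these mice were C57BL/6 animals of 15 months. The other 5 libraries, of mice with either change alone, enter only the estimate of the spread between replicates. In the double-mutant mice the probasin (Pb) promoter drives a truncated ERG of the TMPRSS2-ERG type in prostate epithelium, and a Cre recombinase under the same promoter activates a mutant Trp53 allele and deletes the other. The WT mice were littermates in the study's methods and carry neither change. The methods call the libraries biological triplicates, and the labels do not tie them to single animals, so the p-values measure the spread between these libraries. Both transgenes depend on a promoter that is itself active in androgen-responsive luminal cells, and the libraries are labelled only as prostate rather than as a sorted cell type or a named lobe, so fewer cells of a type and less RNA per cell cannot be told apart in any of the values below.

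The mouse prostate is a secretory gland. Luminal cells, which depend on androgens, release large amounts of a few proteins into the ducts, basal cells line the outside of the epithelium, and each duct lies in a sheath of smooth muscle with fibroblasts, vessels, nerves and a few immune cells. ERG is an ETS family transcription factor that is normally made by endothelial and blood-forming cells, and p53, the product of Trp53, is a transcription factor that stops the cell cycle after DNA damage. The series was made to find genes whose expression changed when both lesions were present, and comparing the double-mutant with the WT libraries asks which genes, families and tissue programs gained or lost expression with both together.

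Expression was given as FPKM, the fragments of a gene scaled to its exon length and to the fragments of its library. Fold changes are the double-mutant mean of log2(FPKM + 1) less the WT mean. Library totals ranged from 15795121 to 27158200 fragments, so that an FPKM of 1 in a gene of 1 kb rested on 15.8 to 27.2 fragments. Genes with an FPKM of at least 1 numbered 12389 to 12561 in WT and 13556 to 14557 in the double-mutant libraries, and the 10 most abundant genes took 25.8% to 28.6% of the fragments in WT but 10.6% to 16.1% in the double-mutant libraries. Fragments in the listed genes made up 91.5% to 95.5% of the WT and 74.8% to 89.8% of the double-mutant libraries. Double-mutant replicate 2 had the lowest such share and the most genes. The part of this difference in the gene counts and fold changes was not tested. The double-mutant libraries also resembled each other less, with Pearson correlations across genes of 0.88 to 0.928 against 0.963 to 0.975 in WT. Structural RNAs without a coding frame, summed over Rn7sk, Rmrp and Rpph1, made up 1.76%, 5.55% and 1.69% of the WT libraries, replicates 1 to 3, and 6.69%, 4.67% and 10.34% of the double-mutant libraries. This share moved with the groups, and its part in the results was not tested beyond a fit with the share (4% or more against less) as a covariate, named the small RNA covariate here. The share was 4% or more in all 3 double-mutant libraries but in WT only in replicate 2. That fit can therefore hardly separate the share from the genotype, and why calls were lost in it was not tested.

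Of 15583 genes tested, 617 passed an adjusted p of 0.001, with 542 higher (3.48% of the genes tested) and 75 lower (0.481%) in the double-mutant libraries. The study used the same threshold but with DESeq2, a different test from the one used here, so these counts are not those of the study. At the wider threshold of 0.05, used to count members of gene lists, 2969 genes were higher (19.1%) and 976 lower (6.26%). Every count of list members below is to be read beside these shares. The 3 double-mutant libraries all lay above the 3 WT libraries in 32.0% of the genes tested and all below them in 12.8%. The median log2 fold change of all genes was 0.25, and it was 0.03 after median-of-ratios scaling, which also changed the split to 382 higher and 161 lower at 0.001 and to 2319 higher and 2207 lower at 0.05. With upper-quartile scaling the split was 337 to 200 and 2104 to 2666. Medians of gene lists are therefore given as deposited and, in brackets, after median-of-ratios scaling. Leaving out 1 library moved the count of 617 to 133 without WT replicate 1, 178 without WT replicate 2, 131 without WT replicate 3 and 269 without double-mutant replicate 2, and the small RNA covariate moved it to 58. An exact permutation test of 3 against 3 libraries could not give a p below 0.1 for any single gene, so the adjusted p-values are those of limma's moderated test fitted across all genes and all 11 libraries, with Benjamini-Hochberg adjustment. In what follows, "rose" and "fell" are used of genes past 0.05, and calls that another setting ended are given beside the gene or by the counts of its list.

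**Figure D1:**
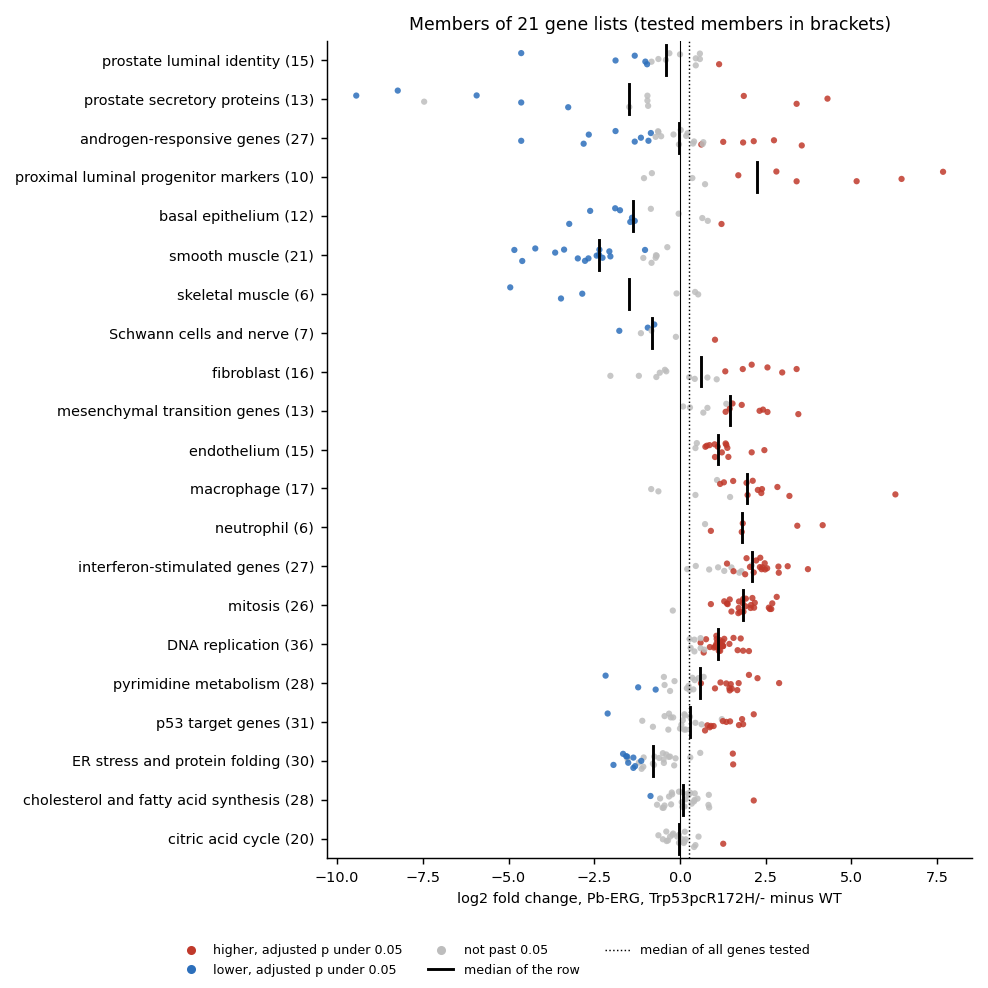
Log2 fold change between the double-mutant and WT libraries (horizontal axis) for each tested member of 21 gene lists (rows, with the number tested in brackets). Red and blue points passed an adjusted p of 0.05 with higher and lower values, grey points did not, black bars are medians and the dotted line is the median of all genes tested, 0.25. The smooth muscle row lies wholly left of the line with a median of -2.35, and the mitosis and interferon rows lie right of it for all but 1 member each, with medians of 1.85 and 2.09.

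Several of the most abundant secreted products of the luminal cells fell, and other secreted proteins rose. Of 13 tested members of the list of prostate secretory proteins, 5 fell (38.5%, against 6.26% of all genes tested) and 3 rose (23.1%, against 19.1%). Their median was -1.48 (-1.77). Sbp, the spermine binding protein, had an FPKM of 9969, 36007 and 24364 in WT replicates 1 to 3 and 15.8, 9.64 and 145 in the double-mutant libraries (log2 fold change -9.44, SE 2.21, adjusted p = 0.0107). Tgm4, the transglutaminase that clots semen (chromosome 9, 123034741 to 123067561, GRCm38), had 21462, 13555 and 17813 in WT and 27.1, 2202 and 367 in the double-mutant libraries (log2 fold change -5.93, SE 1.32, adjusted p = 0.00828). Pbsn, encoding probasin, the gene whose promoter drives both transgenes (chromosome X, 77837901 to 77853623), had 16870, 15849 and 8355 in WT and 112, 605 and 2137 in the double-mutant libraries (log2 fold change -4.63, SE 0.92, adjusted p = 0.00465). In each of these genes every double-mutant library lay below every WT library, but the double-mutant libraries themselves differed from each other widely, with double-mutant replicate 1 or 2 the lowest. Spink3, a protease inhibitor of the secretion with 7652, 21274 and 19857 in WT, had 18.7, 11.3 and 2420 in the double-mutant libraries and did not pass 0.05 (adjusted p = 0.0525). Msmb, the beta-microseminoprotein, overlapped between the groups, with 5391, 3786 and 2210 in WT and 287, 1343 and 5350 in the double-mutant libraries. Members of another kind rose. Clu, encoding the secreted chaperone clusterin (chromosome 14, 65968483 to 65981548), rose from 200, 34.7 and 168 to 509, 1979 and 1418 (log2 fold change 3.4, SE 0.76, adjusted p = 0.00857). Ltf, the iron-binding lactoferrin, rose from 0.762, 0.157 and 1.25 to 17.6, 95.4 and 18.5 (log2 fold change 4.3, SE 0.66, adjusted p = 0.00111). Pbsn missed 0.05 with no filter on low values, and Tgm4 missed it there and with the small RNA covariate. Without a filter 2 members of the list fell in place of 5.

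Some genes of luminal identity fell as well. Among 15 tested members 5 fell and 1 rose, and the median was -0.41 (-0.7). Tmprss2, the androgen-responsive surface protease whose human counterpart is the partner gene of the ERG fusion (chromosome 16, 97564684 to 97611195), fell from 131, 65.9 and 83.9 to 21.9, 29.6 and 20.5 (log2 fold change -1.88, SE 0.38, adjusted p = 0.00503). Cdh1, the epithelial adhesion protein E-cadherin, was the member that rose, from 47.2, 32.7 and 42.8 to 134, 86.8 and 62.8 (log2 fold change 1.14, SE 0.36, adjusted p = 0.0401), and it missed 0.05 with both other scalings, with the replicate block, with no filter and when any single library other than double-mutant replicate 3 was left out, with an adjusted p of up to 0.126. The count of 5 members that fell became 2 without WT replicate 1 or 3, 3 without WT replicate 2 or double-mutant replicate 2 or 3, and 2 with the small RNA covariate.

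**Figure D2:**
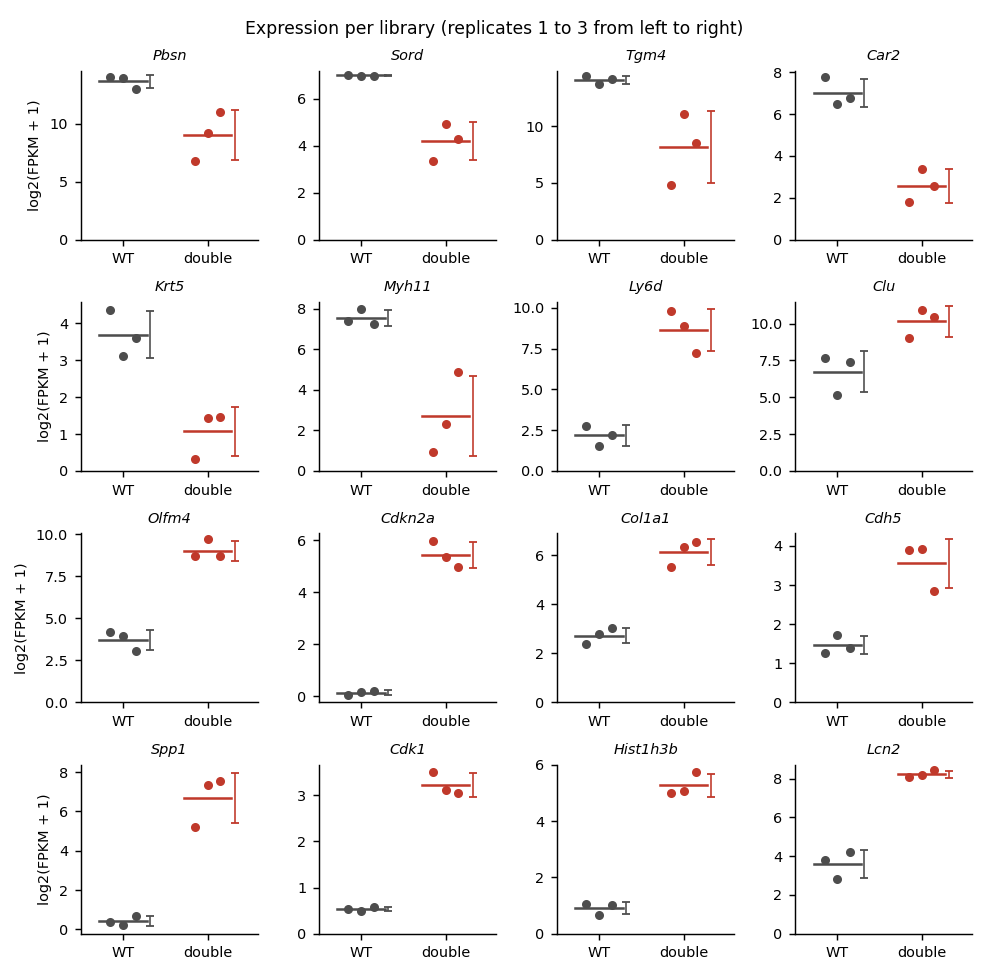
Expression as log2(FPKM + 1) (vertical axis) of 16 genes in the 3 WT libraries (grey) and the 3 double-mutant libraries (red, marked double), with replicates 1 to 3 from left to right. Horizontal bars are means and brackets show 1 SD to each side. Pbsn, Sord, Tgm4, Car2, Krt5 and Myh11 lie lower in every double-mutant library than in any WT library, and the other 10 genes lie higher.

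Genes that respond to androgens moved in both directions. Among 27 tested members of the androgen-responsive list 6 rose (22.2%, against 19.1% of all genes tested) and 8 fell (29.6%, against 6.26%). The share that rose was thus near that of all genes. The median was -0.03 (-0.31), and its sign was not stable over the settings. Steap4, a metalloreductase of the luminal membrane, rose from 5.55, 6.14 and 5.93 to 144, 95 and 36.6 (log2 fold change 3.55, SE 0.51, adjusted p = 0.000749). Pmepa1, which dampens TGF-beta and androgen signalling, rose from 0.921, 1.68 and 1.1 to 13.1, 15.3 and 13 (log2 fold change 2.74, SE 0.2, adjusted p = 3e-05). Among those that fell, Sord, the sorbitol dehydrogenase that makes fructose, went from 129, 126 and 126 to 9.14, 29.8 and 18.6 (log2 fold change -2.81, SE 0.51, adjusted p = 0.00276). Acsl3, which activates long-chain fatty acids, went from 44.9, 69.7 and 91.6 to 10.4, 14 and 5.92 (log2 fold change -2.66), and it missed 0.05 with the small RNA covariate (adjusted p = 0.0628). The widely used androgen reporters Fkbp5 and Zbtb16 overlapped between the groups, Fkbp5 with 48.7, 36.8 and 62.1 in WT and 89.4, 33.9 and 38.5 in the double-mutant group. Without some libraries fewer members fell, namely 4 without WT replicate 1, WT replicate 3 or double-mutant replicate 2 or 3, and with the small RNA covariate 3 rose and 3 fell.

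Markers of the proximal luminal cells, a progenitor-rich population near the urethra, gained expression, although not all of them. Of 10 tested members 6 rose and 0 fell, with a median of 2.26 (2.02), and 6 rose whichever library was left out. Ly6a, encoding the stem cell antigen Sca-1 (chromosome 15, 74994877 to 74998031), rose from 51.2, 43.2 and 45.7 to 2394, 898 and 2249 (log2 fold change 5.15, SE 0.53, adjusted p = 0.000126). Ly6d, a surface marker of the same family, rose from 5.87, 1.9 and 3.66 to 897, 467 and 150 (log2 fold change 6.46, SE 0.61, adjusted p = 8.62e-05). The WT and double-mutant libraries of both genes do not overlap, which holds for all 617 genes past 0.001. Psca and Krt4, which mark the same cells, overlapped. Psca had 14.1, 6.36 and 10.7 in WT and 2.35, 15.6 and 3.27 in the double-mutant libraries, and Krt4 had 9.98, 3.8 and 11.3 in WT and 10.4, 14.6 and 6.63.

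Basal cell genes fell in the same libraries. Of 12 tested members of the basal epithelium list 7 fell and 1 rose, with a median of -1.36 (-1.51). Krt15, a basal keratin, fell from 78.4, 31.4 and 43.1 to 1.5, 6.54 and 6.24 (log2 fold change -3.23, SE 0.53, adjusted p = 0.00167). Krt5, the defining basal keratin (chromosome 15, 101707070 to 101712891), fell from 19.7, 7.66 and 11.1 to 0.243, 1.7 and 1.76 (log2 fold change -2.62, SE 0.52, adjusted p = 0.00443). Trp63, the transcription factor p63 that maintains basal cells, fell from 2.14, 1.98 and 2.69 to 0.0444, 0.285 and 0.278 (log2 fold change -1.45, SE 0.3, adjusted p = 0.0059). Lama3, a chain of the laminin under these cells, fell from 10.3, 5.81 and 7.6 to 1.34, 2.11 and 0.780. The exception was Itgb4, the integrin partner that anchors basal cells to that laminin, with 3.02, 2.48 and 3.64 in WT and 13.7, 9.69 and 4.18 in the double-mutant libraries (log2 fold change 1.21, adjusted p = 0.0294), a rise that missed 0.05 in 9 of the 15 other settings, among them the fits in which any single library other than double-mutant replicate 3 was left out, with an adjusted p of up to 0.091. With the small RNA covariate 1 member of the list fell, and Krt5, Trp63 and Lama3 then had adjusted p-values of 0.0532, 0.0615 and 0.0685, the highest of any setting.

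Among the 40 gene lists, smooth muscle had the largest share of members that fell. Of 21 tested smooth muscle genes 15 fell and 0 rose, with a median of -2.35 (-2.52), and 12 to 15 fell when any 1 library was left out. Myh11, the smooth muscle myosin heavy chain (chromosome 16, 14194527 to 14291408), fell from 166, 250 and 153 to 0.938, 3.98 and 28.1 (log2 fold change -4.83, SE 0.82, adjusted p = 0.00198). Cnn1, encoding calponin, fell from 169, 195 and 146 to 1.59, 3.79 and 26.6 (log2 fold change -4.6, SE 0.8, adjusted p = 0.00222). Actg2, the enteric smooth muscle actin, fell from 189, 171 and 147 to 1.91, 7.28 and 30.2 (log2 fold change -4.22, SE 0.87, adjusted p = 0.00575). In all 3 genes double-mutant replicate 3 kept the most and replicate 1 the least. The summed FPKM of the list was 2166, 2751 and 1914 in WT and 266, 288 and 712 in the double-mutant libraries. Skeletal muscle genes, which mark striated fibres, summed to 173, 148 and 131 in WT and 4.34, 8.4 and 22.6 in the double-mutant libraries. Most of the WT sums came from Acta1 alone, with 139, 116 and 100 in WT and 0.594, 1.28 and 14.5 in the double-mutant libraries. Of 6 tested members 3 fell, Acta1, Tnnc2 and Ckm, 0 rose and 3 were not called. Ckm, the muscle creatine kinase, had an FPKM of 6.81, 6.82 and 6.4 in WT and at most 3 fragments in any double-mutant library, so its fitted change of -2.85 depends on the pseudocount and is no bound.

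Nerve markers were low in all libraries. Of 7 tested Schwann cell and nerve genes 3 fell and 1 rose, the latter being Uchl1, a ubiquitin hydrolase of neurons, which missed 0.05 in 11 of the 15 other settings, among them the fits without WT replicate 1 or 2 or any one double-mutant library, with an adjusted p of up to 0.152. Prph, the neuronal intermediate filament peripherin, had 5.12, 1.12 and 4.75 in WT and 0.0285, 0.138 and 0.613 in the double-mutant libraries (log2 fold change -1.77, adjusted p = 0.0125), and Cdh19, a cadherin of Schwann cells, had 1.03, 1.1 and 0.987 against 0.0136, 0.00941 and 0.17 (log2 fold change -0.94, adjusted p = 0.0156). Sox10, the defining Schwann cell factor, was below the filter with at most 0.263 in any of the 6 libraries. Without WT replicate 1 none of the list fell, 1 fell without WT replicate 3, and Prph and Cdh19 missed 0.05 with the small RNA covariate (adjusted p = 0.128 and 0.0626).

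Other lists of cells and neighbouring organs describe what else each piece of tissue held. The summed FPKM of the seminal vesicle list was 9407, 286 and 12242 in WT and 309, 706 and 94.7 in the double-mutant libraries, and 1 of 9 tested members fell, Svs2, a clotting protein of the vesicle fluid, with 4563, 80.3 and 5235 in WT and 3.51, 2.82 and 6.43 in the double-mutant libraries (adjusted p = 0.0383). It missed 0.05 with no filter, with limma-voom, with the small RNA covariate and when any single library other than WT replicate 2 was left out, with an adjusted p of up to 0.276. The urothelium list summed to 168, 99.1 and 136 in WT and 146, 85.5 and 138 in the double-mutant libraries, with 0 of 5 tested members called, and its defining gene Upk3a was at most 0.344. The adipocyte list summed to 120, 425 and 90.7 in WT and 212, 101 and 194, and 1 of 12 tested members fell, Plin4, a lipid droplet coat protein, from 3.85, 8.21 and 3.06 to 0.258, 0.535 and 1.43. The part of admixed seminal vesicle or muscle in the losses of secretory and muscle genes was not tested.

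**Figure D3:**
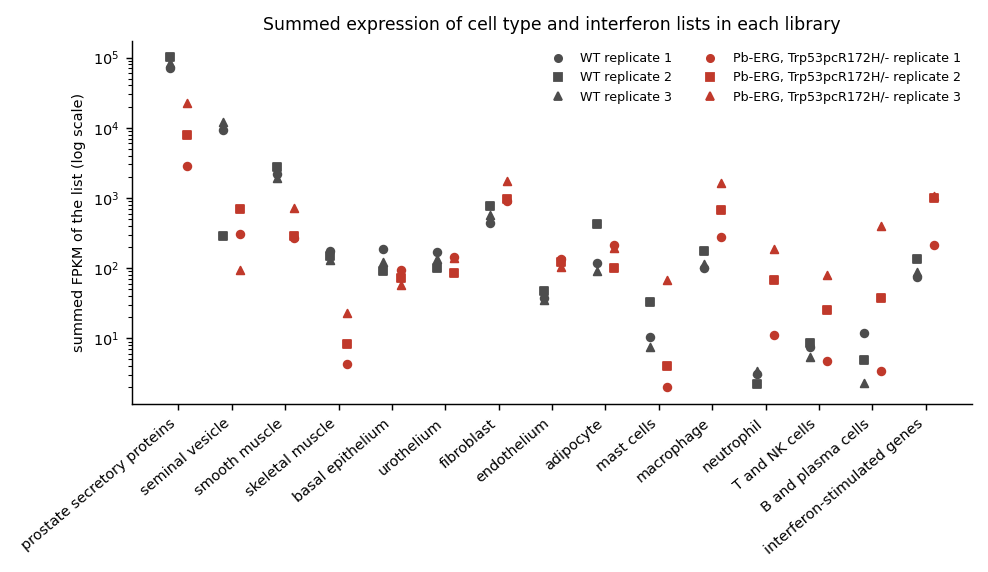
Summed FPKM (vertical axis, log scale) of the members of 15 marker lists in each of the 3 WT (grey) and 3 double-mutant (red) libraries, with circles, squares and triangles for replicates 1 to 3. The sums of the smooth and skeletal muscle and secretory lists do not overlap between the groups, WT replicate 2 has 286 for the seminal vesicle list against 9407 and 12242 in the other WT libraries, and double-mutant replicate 1 has the least of the 3 double-mutant libraries in the macrophage, neutrophil, T and NK, B and plasma cell and interferon lists.

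Stromal genes split into a collagen-rich part that rose and a part that did not. Of 16 tested fibroblast genes 6 rose and 0 fell, with a median of 0.61 (0.36) whose sign changed in some settings. Col1a1, the main chain of type I collagen (chromosome 11, 94936224 to 94953042), rose from 4.2, 5.85 and 7.07 to 44.8, 78.7 and 92.5 (log2 fold change 3.4, SE 0.34, adjusted p = 0.000109), and Fn1, encoding fibronectin, rose from 7.54, 11.4 and 9.22 to 74.9, 57.3 and 47.6 (log2 fold change 2.55, SE 0.26, adjusted p = 0.000114). Pdgfra, the growth factor receptor by which fibroblasts are recognised, rose from 6.68, 8.08 and 5.34 to 28.2, 24.7 and 25.7 (log2 fold change 1.83, SE 0.25, adjusted p = 0.000503). Dcn, encoding the abundant fibroblast proteoglycan decorin, overlapped between the groups, with 188, 260 and 178 in WT and 124, 74.6 and 374 in the double-mutant libraries. Without double-mutant replicate 3, 6 members rose and 3 fell.

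The list of mesenchymal transition genes, which shares Fn1 with the fibroblast list, had 8 of 13 tested members higher and 0 lower, with a median of 1.45 (1.24), and 8 or 9 rose whichever library was left out. Tnc, the matrix protein tenascin-C, rose from 0.66, 0.806 and 0.904 to 28.8, 21.1 and 10.2 (log2 fold change 3.45, SE 0.33, adjusted p = 9.31e-05), and Prrx1, a mesenchymal homeobox factor, rose from 1.03, 2 and 1.29 to 9.57, 19 and 9.04 (log2 fold change 2.42, SE 0.28, adjusted p = 0.000245). The filament protein Vim and the repressor Zeb1, by which such transitions are usually followed, overlapped between the groups, Vim with 32.2, 61.5 and 41.5 in WT and 52.1, 70.1 and 122 in the double-mutant libraries, Zeb1 with 4.47, 6.25 and 3.44 against 3.91, 3.76 and 8.12. Cdh2, encoding N-cadherin, was below the filter.

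Vessel genes rose modestly and together. Of 15 tested endothelial genes 13 rose and 0 fell, with a median of 1.1 (0.89). The 3 double-mutant libraries all lay above the WT libraries in 14 of the 15, against 32.0% of all genes tested. Cdh5, the vascular cadherin (chromosome 8, 104101625 to 104144502), rose from 1.42, 2.31 and 1.64 to 13.9, 14.2 and 6.14 (log2 fold change 2.09, SE 0.29, adjusted p = 0.000647). Egfl7, secreted by endothelium, rose from 2.12, 2.81 and 1.65 to 17.7, 19 and 13.1 (log2 fold change 2.46, SE 0.3, adjusted p = 0.000278), and Pecam1, encoding the endothelial adhesion protein CD31, rose from 5.4, 7.37 and 4.76 to 22.3, 14.7 and 13.8 (log2 fold change 1.38). Erg itself, which endothelium also makes, is described among the ETS factors. With the small RNA covariate 7 members rose, and with the stricter filter of an FPKM of 5 or more in at least 3 libraries 7 rose.

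Macrophage genes gained expression to different degrees in the 3 double-mutant libraries. Of 17 tested members 12 rose and 0 fell, with a median of 1.94 (1.67), while the summed FPKM went from 102, 174 and 113 in WT to 281, 676 and 1633. Spp1, the secreted phosphoprotein osteopontin (chromosome 5, 104435118 to 104441050), rose from 0.288, 0.149 and 0.615 to 36.5, 162 and 184 (log2 fold change 6.28, SE 0.59, adjusted p = 8.05e-05). Trem2, a lipid-sensing receptor of macrophages, rose from 0.249, 0.967 and 1.11 to 6.93, 13.2 and 15.7 (log2 fold change 2.84, SE 0.36, adjusted p = 0.000362), and Ctss, the lysosomal protease cathepsin S, rose from 7.45, 10.9 and 10.6 to 46.5, 110 and 166 (log2 fold change 3.19, SE 0.48, adjusted p = 0.000976). Other macrophage markers stood nearer the threshold. Cd68 had 2.68, 3.52 and 2.82 in WT and 3.85, 9.34 and 25.2 in the double-mutant libraries and did not pass 0.05 (adjusted p = 0.0511), and Csf1r, the receptor macrophages need to survive, had 4.33, 6.29 and 5.05 against 6.85, 14 and 27.8 (adjusted p = 0.043) and missed it in 10 of the 15 other settings, among them the fits when any single library other than double-mutant replicate 1 was left out, with an adjusted p of up to 0.19. The count of 12 became 5 without WT replicate 1, 6 without WT replicate 3, 7 without double-mutant replicate 2 and 3 with the small RNA covariate.

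Other immune lists held fewer measurable genes. Of 6 tested neutrophil genes 5 rose, among them S100a8, a subunit of calprotectin, from 1.09, 0.313 and 1.29 to 3.66, 40.5 and 38.5 (log2 fold change 3.42, SE 0.73, adjusted p = 0.0069), and Ly6g, the neutrophil surface marker, from 0.0504, 0 and 0.134 to 2.82, 13.8 and 118, a call lost in the limma-voom fit (adjusted p = 0.0522). The 5 became 3 without any one of the WT libraries or without double-mutant replicate 2 or 3. Of 12 tested T and NK cell genes 1 rose, the pore-forming Prf1 (adjusted p = 0.049), which was lost when any single library other than double-mutant replicate 1 was left out, and of 4 tested B and plasma cell genes and 6 tested mast cell genes 0 were called. These lists varied most within the double-mutant group, with T and NK sums of 4.82, 25.4 and 79.3, B and plasma cell sums of 3.44, 38.1 and 398 and mast cell sums of 2.01, 4 and 68.1. Without double-mutant replicate 1, 10 T and NK genes and 3 B and plasma cell genes rose, and without replicate 3, 4 mast cell genes fell and 1 rose. Cd3e, Cd4 and Ms4a1, which mark T and B cells, were below the filter.

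Interferon-stimulated genes, the antiviral genes that interferons switch on, were higher in the double-mutant libraries but mainly in 2 of the 3. Of 27 tested members 18 rose and 0 fell, 0 of them at 0.001, with a median of 2.09 (1.89). The summed FPKM was 74.3, 135 and 87.7 in WT and 211, 984 and 1067 in the double-mutant libraries. Rsad2, encoding the antiviral enzyme viperin, rose from 0.503, 0.504 and 0.704 to 3.71, 26.1 and 11.1 (log2 fold change 2.88, SE 0.56, adjusted p = 0.00429). Isg15, the ubiquitin-like protein that gave the class its name, had 1.19, 1.95 and 2.26 in WT and 4.43, 60.6 and 41.8 in the double-mutant libraries (log2 fold change 3.14, SE 0.78, adjusted p = 0.0146, with up to 0.0531 in other settings, where the call was lost without WT replicate 1 or double-mutant replicate 2, with the small RNA covariate and with limma-voom). Ifi27l2a had 9.54, 72.2 and 7.79 in WT and 64, 375 and 648 (adjusted p = 0.0162, up to 0.132 in other settings), so that WT replicate 2 lay above double-mutant replicate 1. The number of members that rose was 8 when any one of the 3 WT libraries was left out, 4 without double-mutant replicate 2, 11 without replicate 3, 24 without replicate 1, 6 with the small RNA covariate and 10 with no filter.

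The binding site of the interferon complexes is a repeat of GAAA separated by any 2 bases. It is shown for 2 promoters picked from the list. The 130 bases before the RefSeq start of each gene (GRCm38, minus strand of the chromosome, read 5′ to 3′ in the direction of the gene) are printed in lower case with matches to GAAA, any 2 bases and GAAA again, on either strand, in capitals. The stretch of Isg15 is chr4:156200819-156200948 and that of Rsad2 is chr12:26456453-26456582.
Isg15: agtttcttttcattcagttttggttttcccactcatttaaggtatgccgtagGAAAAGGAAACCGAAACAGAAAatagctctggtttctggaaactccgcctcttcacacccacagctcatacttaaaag
Rsad2: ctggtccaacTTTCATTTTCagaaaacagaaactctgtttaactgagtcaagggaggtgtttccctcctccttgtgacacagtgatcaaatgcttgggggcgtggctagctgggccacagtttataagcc
The 3 matches of Isg15 overlap each other and begin 78, 72 and 66 bases before the start, and the match of Rsad2 lies on the other strand. Promoter windows were found for 19 of the 27 listed genes, and in the 250 bases before the start 11 of their 21 windows (52.4%) held a match, against 3.0% of all 32851 mouse windows of that length. A match is a description of the letters and not evidence of binding. The share describes the list, whose genes were chosen as interferon-stimulated, and not these libraries.

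Beside the interferon genes, the list of complement and acute phase genes had 6 of 15 tested members higher and 0 lower, with a median of 1.55 (1.33). Lcn2, the iron-trapping lipocalin of inflamed epithelium (chromosome 2, 32384633 to 32387797), rose from 12.8, 6.04 and 17.3 to 266, 292 and 344 (log2 fold change 4.63, SE 0.43, adjusted p = 7.82e-05), with the double-mutant libraries close together. C2, a protease of the classical complement pathway, rose from 2.92, 4.37 and 3.78 to 48.1, 40 and 32.7 (log2 fold change 3.13, SE 0.36, adjusted p = 0.000214). The central component C3 overlapped, with 13.4, 33 and 24.7 in WT and 10, 20.2 and 109 in the double-mutant libraries.

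Among the 40 gene lists, the mitotic genes had the largest share of members that rose. Of 26 tested members 25 rose, 21 of them at 0.001, and 0 fell, with a median of 1.85 (1.69), and 25 rose whichever library was left out and with the small RNA covariate. Cdk1, the kinase that starts mitosis (chromosome 10, 69336635 to 69352938), rose from 0.447, 0.413 and 0.489 to 10.4, 7.62 and 7.24 (log2 fold change 2.69, SE 0.19, adjusted p = 3e-05). Ccnb2, a cyclin partner of Cdk1, rose from 0.37, 0.439 and 0.411 to 8.59, 8.72 and 6.58 (log2 fold change 2.66, SE 0.28, adjusted p = 0.000138), and Cdc20, which triggers the exit from mitosis, rose from 0.689, 0.171 and 0.6 to 11.1, 10.5 and 6.98 (log2 fold change 2.82, SE 0.32, adjusted p = 0.000204). The summed FPKM of the list was 19.7, 14.3 and 17.8 in WT and 156, 138 and 102 in the double-mutant libraries, so its order among the 3 double-mutant libraries was the reverse of that of the macrophage list. With the stricter filter, which removes genes of low level, 6 members rose.

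Promoters of mitotic genes are known for the CCAAT box, bound by the factor NF-Y, in several copies close to the start. The stretch of Cdk1, chr10:69352913-69353042, and that of Ccnb2, chr9:70421555-70421684, both on the minus strand, are printed as above with CCAAT on either strand in capitals (ATTGG is CCAAT read on the other strand).
Cdk1: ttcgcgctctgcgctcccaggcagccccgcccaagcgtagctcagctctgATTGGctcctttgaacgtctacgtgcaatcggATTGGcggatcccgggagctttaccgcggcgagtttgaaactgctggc
Ccnb2: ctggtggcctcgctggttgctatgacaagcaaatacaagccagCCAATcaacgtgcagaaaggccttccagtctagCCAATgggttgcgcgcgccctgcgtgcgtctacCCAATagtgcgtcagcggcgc
Ccnb2 has matches that begin 87, 54 and 21 bases before the start, and Cdk1 has them at 80 and 48. Promoter windows were found for 23 of the 27 listed genes, and 18 of their 24 windows (75.0%) held CCAAT in the 250 bases before the start, against 33.8% of all windows. As for the interferon list, this share describes the list and not these libraries, and a match is not evidence of binding.

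Most genes of the machinery that copies DNA rose too. Of 36 tested DNA replication genes 29 rose and 0 fell, 7 of them at 0.001, with a median of 1.1 (0.89), and 24 to 30 rose when any 1 library was left out. Mcm5, Mcm6 and Mcm3, subunits of the helicase that opens the double strand, rose with log2 fold changes of 2.01 (SE 0.26, adjusted p = 0.000463), 1.84 and 1.77. The FPKM of Mcm5 was 1.51, 0.521 and 0.944 in WT and 5.35, 6.13 and 9.79 in the double-mutant libraries. Cdc6, which loads that helicase, had 0.457, 0.154 and 0.238 in WT and 1.25, 1.25 and 0.995 (adjusted p = 0.0188) and missed 0.05 without WT replicate 2 or 3 or double-mutant replicate 2, with an adjusted p of up to 0.0718.

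The replication-dependent histones, whose genes are copied into messages without poly(A) tails only while DNA is made, had a higher median than the replication enzymes. Of 59 tested genes 49 rose, 24 of them at 0.001, and 1 fell, with a median of 2.12 (1.85). Hist1h3b, a histone H3 gene (chromosome 13, 23752267 to 23752886), rose from 1.07, 0.595 and 1.02 to 31.3, 32.5 and 52.7 (log2 fold change 4.36, SE 0.28, adjusted p = 1.94e-05). Hist1h1a, a linker histone, rose from 2.44, 2.97 and 3.16 to 56.9, 63.7 and 134 (log2 fold change 4.37, SE 0.37, adjusted p = 5.18e-05), and Hist1h3c rose from 1.55, 0.754 and 2.33 to 24.3, 32.5 and 61 (log2 fold change 3.93). The member that fell was Hist2h3c1, from 5.37, 5.64 and 8.59 to 4.91, 2.1 and 1.99 (log2 fold change -0.96, adjusted p = 0.0283), and it missed 0.05 without WT replicate 2 or 3 or double-mutant replicate 2 or 3 and in 3 of the other settings, with an adjusted p of up to 0.118. Double-mutant replicate 3, which has the highest small RNA share, also had the highest values of the 3 H3 and H1 genes named first, and 41 members rose with the small RNA covariate. Near-identical histone genes share reads, so the split among members is uncertain. Because these messages lack poly(A) tails, their values may also depend on how RNA was selected for the libraries, which was not tested.

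Nucleotide metabolism moved in parts. Of 28 tested genes of pyrimidine metabolism 13 rose and 3 fell, with a median of 0.57 (0.33). Those that fell included the enzymes at both ends of pyrimidine breakdown. Upb1, the last enzyme of pyrimidine breakdown, fell from 11.3, 6.38 and 7.72 to 1.24, 0.799 and 1.17 (log2 fold change -2.17, SE 0.25, adjusted p = 0.000213), and Dpyd, the first, fell from 2.31, 1.9 and 2.23 to 0.0237, 0.41 and 0.711 (log2 fold change -1.22, SE 0.24, adjusted p = 0.00402). Dhodh, the mitochondrial enzyme of pyrimidine synthesis, had 6.83, 8.95 and 10.6 in WT and 4.51, 4.62 and 5.68 (adjusted p = 0.0342), a fall that missed 0.05 without WT replicate 2 or 3 or double-mutant replicate 1 or 2 and in 2 of the other settings, with an adjusted p of up to 0.142. Cmpk2, a nucleotide kinase that interferon induces, rose from 1.93, 1.94 and 2.2 to 5.62, 20.1 and 11.8 (log2 fold change 2.01, SE 0.45, adjusted p = 0.00884). Cad, which carries the entry steps of the synthesis, overlapped between the groups, with 5.66, 7.3 and 12.6 in WT and 18.1, 10.5 and 9.47. With either other scaling 6 members fell. Of 21 tested purine genes 7 rose and 1 fell, with a median of 0.61 (0.35), and 3 rose and 0 fell without WT replicate 3 or with the small RNA covariate, while 2 fell without double-mutant replicate 3. Ada, the adenosine deaminase, rose from 0.928, 1.56 and 1.5 to 9.99, 5.08 and 11.3 (log2 fold change 2.02, SE 0.35, adjusted p = 0.00235).

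Polyamine and one-carbon genes did not move as groups. Of 14 tested polyamine genes 3 rose and 1 fell, with a median of 0.2 (0.04), and 2 fell without double-mutant replicate 3. Arg1, the arginase that makes ornithine and that also marks a class of macrophages (chromosome 10, 24915208 to 24927470), rose from 1.64, 0.624 and 0.643 to 56.7, 28.6 and 35 (log2 fold change 4.36, SE 0.62, adjusted p = 0.000693), while Sms, the spermine synthase, fell from 7.89, 7.69 and 5.93 to 2.62, 2.4 and 2.97 (log2 fold change -1.15, SE 0.17, adjusted p = 0.000999). Of 15 tested genes of serine and one-carbon metabolism 3 rose and 1 fell, with a median of 0.1 (-0.1), and 0 fell without WT replicate 1. Phgdh, the entry enzyme of serine synthesis, had 95.8, 90.7 and 117 in WT and 67.7, 36.2 and 59.9 in the double-mutant libraries and did not pass 0.05 (adjusted p = 0.0652). The medians of both lists changed sign in some settings.

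The energy and lipid lists differed in the number of genes called. Of 21 tested glycolysis and hypoxia genes 6 rose and 0 fell, with a median of 0.41 (0.15), and 3 rose without WT replicate 1 and 2 without WT replicate 2. Gapdh rose from 52.5, 39.7 and 51.2 to 191, 125 and 144 (log2 fold change 1.65, SE 0.28, adjusted p = 0.002), and Egln3, an oxygen sensor that hypoxia induces, rose from 0.375, 0.554 and 0.262 to 26.8, 6.87 and 6.01 (log2 fold change 3.05, SE 0.46, adjusted p = 0.000953). Ldha, which makes lactate, overlapped with 189, 179 and 215 in WT and 181, 149 and 268 in the double-mutant libraries. Of 28 tested genes of cholesterol and fatty acid synthesis 1 rose and 1 fell, Lss, with a median of 0.1 (-0.09), although Lss, an enzyme of sterol ring closure, missed 0.05 without WT replicate 1 or 3 and with the small RNA covariate (adjusted p of up to 0.129) and 2 members rose and 2 fell without double-mutant replicate 3, and of 20 tested citric acid cycle genes 1 rose, Idh3a, and 0 fell, with a median of -0.03 (-0.3). After median-of-ratios scaling 6 citric acid cycle genes fell. Of 80 tested cytosolic ribosomal protein genes 1 rose, Rpl35a, with a median of 0.32 (0.04).

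Genes of the apparatus that folds secreted proteins fell in part. Of 30 tested genes of ER stress and protein folding 9 fell and 2 rose, with a median of -0.78 (-1.06). Dnajc3, an ER co-chaperone, fell from 240, 215 and 306 to 47.3, 84.1 and 68 (log2 fold change -1.94, SE 0.4, adjusted p = 0.00567). Pdia6, a disulphide isomerase, had 1489, 1052 and 1656 in WT and 543, 375 and 489 in the double-mutant libraries (log2 fold change -1.57, SE 0.41, adjusted p = 0.0189), and the chaperone Hspa5, known as BiP, had 1263, 1524 and 2411 against 458, 760 and 547 without passing 0.05 (adjusted p = 0.0873). Every double-mutant library lay below every WT library in 17 of the 30, against 12.8% of all genes tested. Of the members that rose, Trib3, a pseudokinase induced by stress, went from 1.38, 1.58 and 1.31 to 12.4, 3.11 and 5.29 (log2 fold change 1.54), and it missed 0.05 with the small RNA covariate. The count of 9 that fell was 16 after median-of-ratios and 18 after upper-quartile scaling, 3 without WT replicate 1 or double-mutant replicate 1 or with no filter, 1 without WT replicate 3 or with the small RNA covariate, and 4 without double-mutant replicate 3. Pdia6 missed 0.05 with no filter, with the small RNA covariate and without WT replicate 1 or 3 or double-mutant replicate 2, with an adjusted p of up to 0.12, and the second member that rose, Creb3l1, missed it with no filter, with the covariate and without WT replicate 1 or 2 or double-mutant replicate 1 or 2, with an adjusted p of up to 0.0706.

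Among genes that p53 normally activates more rose than fell in these prostates with mutant Trp53, as among all genes tested. Of 31 tested targets 12 rose (38.7%, against 19.1% of all genes tested), 1 fell (3.23%, against 6.26%) and 18 were not called. Their median was 0.29 (0.11), beside 0.25 (0.03) for all genes. Pmaip1, encoding the death protein Noxa, rose from 0.197, 0.209 and 0.311 to 3.66, 4.79 and 5.13 (log2 fold change 2.15, SE 0.25, adjusted p = 0.000234). Ckap2, a spindle protein that is also a mitotic gene, rose from 0.347, 0.165 and 0.341 to 4.6, 4.16 and 2.36 (log2 fold change 1.84, SE 0.24, adjusted p = 0.000427), and Plk2, a stress kinase, rose from 4.07, 5.59 and 3.75 to 21.4, 23.7 and 11.4 (log2 fold change 1.81, SE 0.27, adjusted p = 0.000999). The target that fell was Ephx1, the microsomal epoxide hydrolase (chromosome 1, 180989554 to 181017569), from 55.2, 48.9 and 60 to 9.78, 13.3 and 12.7 (log2 fold change -2.11, SE 0.23, adjusted p = 0.000184). Cdkn1a, the first target of the list, rose from 1.58, 0.829 and 1.42 to 4.02, 4.47 and 5.91 (log2 fold change 1.35, SE 0.26, adjusted p = 0.00412). Mdm2 overlapped between the groups, with 19.6, 15.6 and 16.3 in WT and 21.2, 17.8 and 14.5 in the double-mutant libraries. Ccng1, a cyclin that p53 induces, had 72.5, 68.4 and 70 in WT and 31.1, 41.9 and 49.6 and did not pass 0.05 (adjusted p = 0.0608). The 12 became 7 without WT replicate 1, 2 or 3, and after median-of-ratios scaling 8 rose and 5 fell.

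Targets and feedback genes of the Wnt pathway went both ways. Of 20 tested members 8 rose and 5 fell, with a median of 0.19 (-0.02). Those that fell were the feedback inhibitors Nkd1, Axin2, Apcdd1 and Znrf3 and the transcription factor gene Sp5. Axin2 (adjusted p = 0.032) missed 0.05 with no filter, with the small RNA covariate and when any single library other than double-mutant replicate 1 was left out, with an adjusted p of up to 0.22, and Sp5 and Apcdd1 missed it with the covariate (adjusted p = 0.0535 and 0.104). Nkd1, an inhibitor that Wnt signalling induces, fell from 16.3, 11.9 and 18.3 to 0.262, 1.21 and 1 (log2 fold change -3.2, SE 0.4, adjusted p = 0.000336), and Sp5, which the pathway switches on, fell from 8.68, 5.7 and 8.29 to 0.279, 1.09 and 2.63 (log2 fold change -1.99, SE 0.43, adjusted p = 0.00761). Cd44, the hyaluronan receptor, rose from 2.82, 2.11 and 1.18 to 44.7, 16.2 and 16.5 (log2 fold change 3.02, SE 0.56, adjusted p = 0.00336), and Bambi, a decoy receptor, rose from 1.57, 1.9 and 1.33 to 16.6, 9.15 and 7.03 (log2 fold change 2.12, SE 0.33, adjusted p = 0.00119). The 5 that fell became 3 without WT replicate 1, 2 or 3, without double-mutant replicate 2 or 3 and with no filter, and 1 with the small RNA covariate. Among 9 tested frizzled receptors, which bind the ligands of the pathway, 4 rose and 2 fell, with Fzd1 going from 7.21, 10 and 10.5 to 43.8, 30.9 and 30.8 (log2 fold change 1.82, SE 0.21, adjusted p = 0.000237) and Fzd5 from 4.46, 3.85 and 4.91 to 1.69, 2.57 and 1.46 (log2 fold change -0.91, adjusted p = 0.00848). With the small RNA covariate 2 receptors rose and 0 fell.

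Other ETS factors moved beside Erg. Of 20 tested members of the family 8 rose and 2 fell, with a median of 0.59 (0.34). Erg, measured at the mouse gene, had 0.479, 0.851 and 0.457 in WT and 19.6, 9.21 and 6.65 in the double-mutant libraries (log2 fold change 2.89). Whether fragments of the transgene count at this locus was not tested. Elk3, an ETS factor of vessels and mesenchyme, rose from 2.65, 2.25 and 1.8 to 15.4, 8.27 and 9.75 (log2 fold change 1.87, SE 0.25, adjusted p = 0.000469). Those that fell are epithelial. Ehf (chromosome 2, 103263433 to 103303278) fell from 329, 180 and 272 to 26.3, 74.6 and 22.8 (log2 fold change -2.79, SE 0.54, adjusted p = 0.00391), and Elf5, a factor of glandular epithelium, had 33, 13.3 and 19.7 in WT and 0.22, 4.33 and 0.84 (log2 fold change -3.24, SE 0.86, adjusted p = 0.0195), which missed 0.05 without WT replicate 1 or 3 or double-mutant replicate 1, with no filter and with the small RNA covariate, with an adjusted p of up to 0.145. The 8 that rose became 4 without WT replicate 1, 5 without WT replicate 2 or 3 or double-mutant replicate 2, and 5 after median-of-ratios scaling.

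Of 12 tested ligands and receptors of the EGF family 2 fell and 0 rose. Egf, which the prostate secretes in large amounts, fell from 147, 123 and 169 to 38.5, 38.9 and 56.8 (log2 fold change -1.7, SE 0.33, adjusted p = 0.00394), and the receptor Erbb4 fell from 0.963, 1.12 and 1.33 to 0.022, 0.161 and 0.0433 (log2 fold change -0.99, SE 0.21, adjusted p = 0.00717). Egfr, the main receptor, had 3.76, 3.59 and 3.79 in WT and 3.13, 3.99 and 5.01 in the double-mutant libraries. In the list of Notch and Hedgehog genes 8 of 19 tested members rose and 1 fell. Nrarp, a feedback gene of Notch, rose from 0.625, 0.404 and 0.49 to 3.03, 2.41 and 2.53 (log2 fold change 1.28, SE 0.19, adjusted p = 0.000983), and Hhip, the inhibitor that binds Hedgehog ligands, fell from 3.55, 5.62 and 4.49 to 0.464, 0.667 and 0.478 (log2 fold change -1.84, SE 0.28, adjusted p = 0.001). Smo, the Hedgehog signal transducer, rose from 5.29, 5.19 and 4.89 to 38.2, 15.6 and 18.2 (log2 fold change 1.92), a call lost with the small RNA covariate (adjusted p = 0.052), with which 2 members of this list rose.

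Of 15 tested immediate-early genes, which respond within minutes to handling as well as to growth factors, 7 rose and 0 fell, and 13 rose when only the 6 compared libraries were fitted. Jun rose from 9.28, 7.67 and 5.6 to 42.3, 27.6 and 22.9 (log2 fold change 1.88, SE 0.34, adjusted p = 0.00285), while Fos had 1.33, 0.874 and 1.02 in WT and 2.85, 5.47 and 10.6 without passing 0.05. The 7 became 4 without WT replicate 1 or 3 and after median-of-ratios scaling, and 2 with the small RNA covariate. Of 8 tested neuroendocrine genes 2 rose, the prohormone convertase Pcsk1 and the peptide gene Calca, and 0 fell. Calca had 0.0321, 0 and 0.128 in WT and 5.03, 0.771 and 1.7 in the double-mutant libraries, while Chga, encoding the granule protein chromogranin A, had 1.51, 1.47 and 2.89 in WT and 0.0848, 0.293 and 0.202 without passing 0.05. Both neuroendocrine calls were lost with the small RNA covariate (adjusted p = 0.0902 and 0.0592), and Pcsk1 was lost when any single library other than double-mutant replicate 2 was left out. Of 8 tested mucous and gut-type genes 2 rose and 2 fell, with Fcgbp, a mucus protein, going from 26.5, 23.1 and 24.1 to 0.53, 5.86 and 0.66 (log2 fold change -3.3, SE 0.58, adjusted p = 0.00249).

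Among genes with a mean FPKM of at least 5 in the higher group, 430 were higher and 66 lower at 0.001, and the genes described next are from the 20 with the largest rise. Ctla2a, a cysteine protease inhibitor, rose from 16.9, 21.4 and 29.3 to 3714, 1641 and 1443 (log2 fold change 6.49, SE 0.66, adjusted p = 0.000121). Serpinb11, an intracellular serpin, rose from 0.615, 0.472 and 0.638 to 298, 96.8 and 98.5 (log2 fold change 6.5, SE 0.52, adjusted p = 3.67e-05). A2m, encoding the broad inhibitor alpha-2-macroglobulin, had at most 4 fragments in any WT library and an FPKM of 47.4, 87.2 and 55.1 in the double-mutant libraries. Srgn, the granule proteoglycan serglycin (chromosome 10, 62493833 to 62527451), rose from 4.31, 5.54 and 4.23 to 503, 183 and 238 (log2 fold change 5.63, SE 0.34, adjusted p = 1.88e-05). Olfm4, a secreted glycoprotein of intestinal stem cells, rose from 17.1, 14.3 and 7.37 to 416, 846 and 411 (log2 fold change 5.31, SE 0.71, adjusted p = 0.000522). Grp, the neuropeptide gastrin-releasing peptide, rose from 1.52, 0.464 and 0.717 to 309, 91.1 and 186 (log2 fold change 6.56, SE 0.87, adjusted p = 0.000495). The groups did not overlap in any of these genes, but neither did they in any of the 617 genes past 0.001.

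The 20 largest rises also included the following genes. Sprr2a3, of the small proline-rich proteins of the cornified envelope, rose from 0.278, 0.36 and 0.834 to 148, 107 and 119 (log2 fold change 6.4, SE 0.51, adjusted p = 3.67e-05). Cxcl15, a chemokine of lung epithelium, rose from 0.625, 0.375 and 0.625 to 138, 40.9 and 62.1 (log2 fold change 5.54), and Bpifb1, a secreted protein of the airways, had at most 1 fragment in any WT library and 187, 18.5 and 18.1 in the double-mutant libraries. Prl8a2, a prolactin-family hormone of the decidua, had at most 5 fragments in WT and 8.59, 186 and 175. Cdkn2a, which encodes the INK4A and ARF cell cycle inhibitors (chromosome 4, 89274471 to 89294653), had at most 3 fragments in any WT library and an FPKM of 61.7, 40.4 and 30.7 in the double-mutant libraries (fitted log2 fold change 5.3, SE 0.35, adjusted p = 2.23e-05). Fitted changes of the genes with so few WT fragments depend on the pseudocount and are no bounds. Ly6c1, a surface antigen of endothelium and leukocytes, rose from 9.73, 14.4 and 15.3 to 1016, 368 and 1431 (log2 fold change 5.87). Ly6a and Ly6c1, Ctla2a, Sprr2a3 and the secretoglobin Scgb1b3 have close paralogs with which they can share reads.

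Of the 20 largest falls by the same rule, Pnliprp1, Fgl1, Bglap3 and Gsdma came first, and the following were among the others. Car2, a carbonic anhydrase (chromosome 3, 14886426 to 14900769), fell from 219, 89.9 and 108 to 2.44, 9.51 and 4.84 (log2 fold change -4.45, SE 0.44, adjusted p = 0.000105). Atp6v1c2, a subunit of the proton pump, fell from 257, 172 and 211 to 1.33, 13.2 and 6.73 (log2 fold change -5.06, SE 0.64, adjusted p = 0.000376), and Slc9a2, a sodium and proton exchanger, fell from 50, 50.9 and 63.8 to 3.21, 6.68 and 9.14 (log2 fold change -3.01, SE 0.3, adjusted p = 0.000115). Among metabolic enzymes, Gnmt, which consumes S-adenosylmethionine to methylate glycine, fell from 29.2, 36.2 and 33 to 2, 1.53 and 3.5 (log2 fold change -3.38, SE 0.37, adjusted p = 0.000186). Phyh, the peroxisomal hydroxylase of branched fatty acids, fell from 592, 277 and 344 to 37.2, 47 and 56.4 (log2 fold change -3.03, SE 0.33, adjusted p = 0.000182), and Tmem97, a sterol-binding membrane protein, fell from 78.6, 69.7 and 83.8 to 7.27, 10.6 and 11.3 (log2 fold change -2.89). Acrbp, a protein known from the sperm acrosome, fell from 81.9, 76.2 and 47.7 to 0.975, 2.49 and 2.96 (log2 fold change -4.49, SE 0.36, adjusted p = 3.67e-05). The double-mutant libraries of all of these genes lay below every WT library, but the groups were apart in all 617 genes past 0.001.

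**Figure D4:**
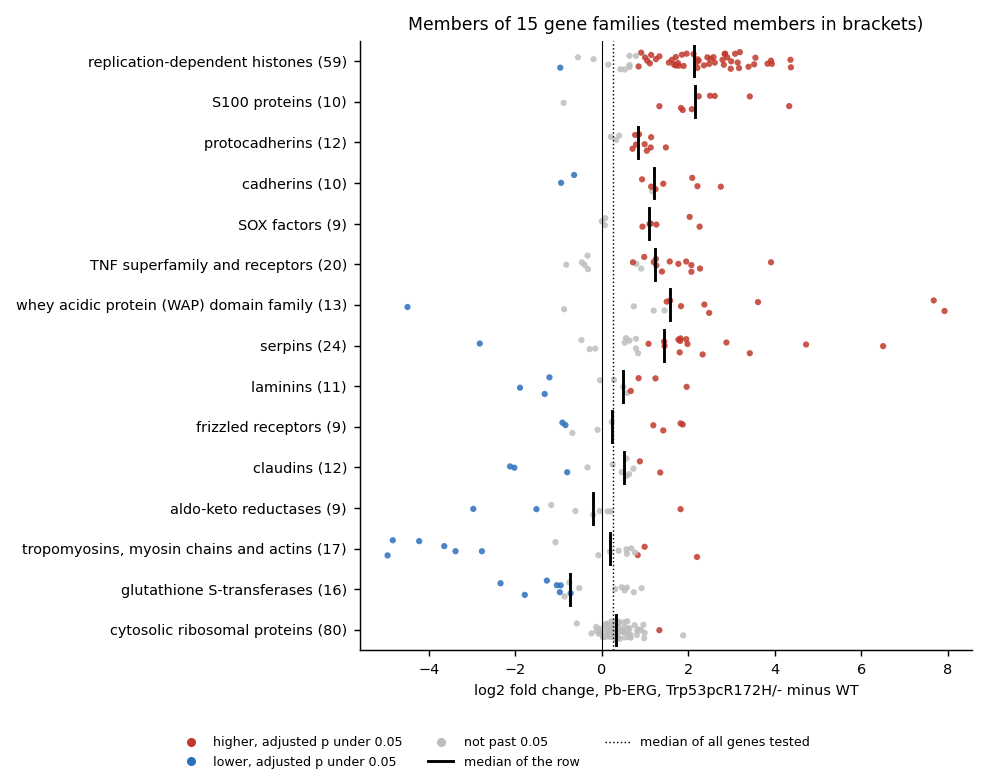
Log2 fold change between the double-mutant and WT libraries (horizontal axis) for each tested member of 15 gene families (rows, with the number tested in brackets), drawn with the same colours and bars as the gene lists. Replication-dependent histones and S100 proteins have medians of 2.12 and 2.16, glutathione S-transferases have a median of -0.73, and the cytosolic ribosomal proteins gather near the median of all genes.

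Gene families of at least 8 tested members were ranked by the share that rose, and the 6 highest were the histones and the adhesion and signalling families that follow. Of 10 tested S100 proteins, small calcium-binding proteins, 9 rose and 0 fell, with a median of 2.16 (1.88). S100a14, a member made by epithelia (chromosome 3, 90526849 to 90528837), rose from 3.29, 1.74 and 2.37 to 139, 48.8 and 45.5 (log2 fold change 4.33, SE 0.39, adjusted p = 7.22e-05). Of 12 tested protocadherins 9 rose and 0 fell, with a median of 0.82 (0.71), all at FPKM of at most 5.5 in the members with the largest rises, Pcdhb9, Pcdh12 and Pcdhb16. Pcdhb9 missed 0.05 without WT replicate 3 and with the small RNA covariate (adjusted p of up to 0.082). Of 10 tested cadherins 7 rose and 2 fell, with Cdh11, a mesenchymal cadherin, going from 3.55, 3.05 and 2.43 to 26.9, 23 and 27.8 (log2 fold change 2.75, SE 0.27, adjusted p = 0.000105). The 7 became 4 without WT replicate 3, and the falls of Cdh19 and Cdh13 were both lost without WT replicate 1 or 2, and that of Cdh13 also without any one of the double-mutant libraries (adjusted p of up to 0.145). Of 20 tested members of the TNF superfamily and its receptors 13 rose and 0 fell, with a median of 1.22 (1.01), and 8 rose with the small RNA covariate. Tnfrsf12a, the receptor Fn14, rose from 4.93, 3.06 and 3.62 to 84.2, 48.9 and 86.9 (log2 fold change 3.91, SE 0.37, adjusted p = 8.72e-05). Of 9 tested SOX factors 6 rose and 0 fell, among them Sox4, from 5.8, 2.87 and 3.12 to 26.5, 23.5 and 16.7 (log2 fold change 2.26, SE 0.32, adjusted p = 0.000648), and Sox2, a pluripotency factor, from 1.8, 0.896 and 2.03 to 19.4, 7.48 and 5.28 (log2 fold change 2.03). With the small RNA covariate 2 SOX factors rose. The WAP domain and serpin families, both of protease inhibitors and drawn because members of them are among the largest rises, had 8 of 13 and 14 of 24 tested members higher and 1 each lower, with medians of 1.58 (1.45) and 1.44 (1.32), and 6 to 8 and 13 to 14 members rose when any 1 library was left out.

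The families with the highest share of members that fell were the contractile proteins, the detoxifying enzymes and parts of the cell junctions. Of 16 tested glutathione S-transferases, which conjugate toxic compounds, 7 fell and 0 rose, with a median of -0.73 (-0.92). Gstm1 fell from 99.5, 64.6 and 84.1 to 28.6, 18.9 and 22.5 (log2 fold change -1.78, SE 0.31, adjusted p = 0.00226). The 7 became 1 without WT replicate 1, 4 without WT replicate 2, 3 without double-mutant replicate 2, 4 without double-mutant replicate 3 and 2 with the small RNA covariate. Of 9 tested aldo-keto reductases 2 fell and 1 rose. Akr1b3, the aldose reductase that makes sorbitol (chromosome 6, 34303934 to 34317497), fell from 427, 297 and 402 to 34.3, 50.3 and 58.5 (log2 fold change -2.97, SE 0.5, adjusted p = 0.00177), beside Sord, which turns sorbitol into fructose. Akr1b8, of the same family, rose from 5.38, 4.84 and 5.78 to 23.7, 11.2 and 36.2 (log2 fold change 1.82, SE 0.41, adjusted p = 0.00917).

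Within the remaining families different members moved in opposite directions. Of 17 tested tropomyosins, myosin chains and actins 6 fell, the muscle forms, and 3 rose, the non-muscle Tpm4, Tpm3 and Myl12a. Tpm4 rose from 25.3, 25.7 and 21.7 to 121, 88.2 and 141 (log2 fold change 2.2, SE 0.26, adjusted p = 0.000265), while Tpm3 and Myl12a missed 0.05 in 6 and 9 of the 15 other settings, with adjusted p-values of up to 0.12 and 0.15. The 3 became 1 without WT replicate 2 or 3 or double-mutant replicate 1 or 3. Of 11 tested laminin chains 3 fell and 4 rose. Those that fell were Lama3, Lamb3 and Lamc3, 2 of which belong to the epithelial laminin of basal cells, and the largest rises were in Lama5, Lamb2 and Lama1. Lamb2 went from 19.9, 18.6 and 22.9 to 54.3, 59.4 and 37.7 (log2 fold change 1.24, SE 0.25, adjusted p = 0.00465), and 1 chain rose without WT replicate 1, 2 or 3 or double-mutant replicate 2, where Lama5 and Lama1 reached adjusted p-values of up to 0.0768 and 0.0866. Of 12 tested claudins, the strands of tight junctions, 3 fell and 2 rose. Cldn8, an epithelial claudin, fell from 181, 98.6 and 106 to 27.2, 40.9 and 19.2 (log2 fold change -2.12, SE 0.4, adjusted p = 0.00343), Cldn1 fell by 2.02 on the log2 scale, and Cldn5, the claudin of vessels, rose from 1.54, 2.78 and 1.79 to 4.59, 9.5 and 6.6 (log2 fold change 1.35, SE 0.24, adjusted p = 0.00247). The remaining calls of this family, the fall of Cldn23 and the rise of Cldn25, missed 0.05 in 9 and 11 of the 15 other settings, both of them when any WT library or double-mutant replicate 1 was left out, with adjusted p-values of up to 0.259 and 0.22.

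The library kit does not mark strand, so fragments cannot be divided between loci that overlap. Among the genes named above this holds for Acsl3, Acta1, Akr1b3, Atp6v1c2, Axin2, C2, Cd44, Cdc20, Cdh11, Ckm, Csf1r, Ctss, Egf, Egfl7, Egfr, Erbb4, Fcgbp, Fkbp5, Fn1, Gnmt, Hhip, Hist2h3c1, Itgb4, Lama3, Lama5, Lamc3, Lss, Myl12a, Pdgfra, Pdia6, Plin4, Prrx1, Rpl35a, Smo, Sox2, Sox4, Tnc, Tnnc2, Tpm4, Uchl1 and Zeb1, and their values may hold fragments of a neighbour.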

How the data were processed

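Total RNA from frozen prostate was sequenced as paired-end libraries with a kit that does not mark strand. The study's methods name the TruSeq RNA Sample Prep Kit. The authors aligned the reads to GRCm38 (the submitters' processing notes name STAR 2.5.2b) and deposited FPKM per locus, 29291 loci in each of 11 files. Groups were taken from the sample titles and genotype labels. The exon length of each locus was recovered from the deposited FPKM values, all 29291 of them, so that fragments per library could be counted.

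Loci whose FPKM reached 1 in 2 or more of the 11 libraries were kept, which left 15583 genes and removed 13708. The values log2(FPKM + 1) of all 11 libraries were fitted with limma 3.58.1 in R 4.3.3, with 1 mean for each of 4 genotypes, a trend in the prior variance and Benjamini-Hochberg adjustment over all genes tested. The thresholds were 0.001, as in the study, and 0.05 for counts of list members. The gene lists and families, the comparison and the alternatives were chosen with earlier results of these data known. Named genes are the first 3 symbols of each list, up to 3 members of each list or described family with the largest rise and up to 3 with the largest fall past 0.05, and the 20 largest rises and 20 largest falls past 0.001 with a mean FPKM of at least 5 in the higher group. Znrf3 and Rpl35a were named outside this rule to complete a count, after their values were seen. The procedure was tested on simulated data for this comparison, in which, of 15245 genes tested, 50% of genes changed 4-fold and 71.2% of those changed 8-fold passed 0.001, and 0 of 65 changed 2-fold did. At 0.05 the shares were 85.9%, 87.9% and 12.3%, and 14 of 15050 unchanged genes were called. The simulation changed far fewer genes than passed 0.05 here and gave all genotypes the same spread. Its shares therefore need not hold for these libraries, in which the double-mutant group varied more. Promoter sequences are from RefSeq, GRCm38. Alternatives were median-of-ratios and upper-quartile scaling, a pseudocount of 0.1, no filter, a filter of an FPKM of 5 in 3 libraries, the 6 compared libraries alone, a replicate block, the small RNA covariate, limma-voom on recovered fragments and leaving out each of the 6 libraries. Values of some members of these lists are not reported here.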

Additional observations from a re-analysis of the deposited data

How the results depend on the processing

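The count of 617 genes past 0.001 became 223 with no filter, 188 with only the 6 compared libraries, 58 with the small RNA covariate and 409 with limma-voom on recovered fragments, and lay between 131 and 476 when 1 library was left out. The count of 3945 past 0.05 became 2213 with the filter of an FPKM of 5 in 3 libraries and 2039 with the small RNA covariate, and lay between 2372 and 3785 when 1 library was left out. Deviations of same-numbered WT and double-mutant libraries correlated at 0.079, -0.126 and -0.158, and those of differently numbered libraries at -0.158 to 0.251. So few correlations show no pairing by replicate number but cannot exclude one. The fit with the numbers as a replicate block called 334 genes at 0.001 and 3870 at 0.05. Of 219 named genes past 0.05, 0 reversed in any of the 15 alternatives, 146 passed in every alternative that tested them, 209 passed with median-of-ratios scaling and 153 with the small RNA covariate. Of 65 named genes not past 0.05, 25 changed sign in some alternative, as did the medians of 31 of 96 lists and families. The neutrophil, T and NK cell and mucin lists had no member left under the filter of an FPKM of 5. The causes of these differences were not tested. Few small changes could be called in the simulation, where 0 of 65 genes changed 2-fold passed 0.001 and 8 of 65 passed 0.05. Its setting differs from these libraries as said above, and a gene without a call here may still have changed. The ranges of depth given above run from the lowest to the highest library.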
